A study of Mus musculus with 51 samples.

Results

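AM14-1C4 and AM30-3F4 are mouse stromal lines from the AGM (the aorta, gonads and mesonephros), the part of the embryo in which the first hematopoietic stem cells arise, and both were labelled as supportive of hematopoietic stem and progenitor cells (HSPCs). They were chosen by title, as the 3 arrays of AM14-1C4 and the 3 arrays of AM30-3F4, which make 6 of the 51 arrays of the series and 2 of its 13 lines profiled at confluency. The series set out to compare stromal clones from AGM, fetal liver and bone marrow that do or do not sustain HSPCs ex vivo, using Affymetrix mouse gene 1.0 ST arrays, which carry probes along whole transcripts. The pair answers a narrower question: what differs, and what stays alike, between 2 supportive lines of one tissue. Both lines carried the same labels, namely AGM of embryonic day 11, strain (CBAxC57BL/10)F1 and supportive, and both were grown at 33 °C on gelatin in multiwell plates until confluent. From each, 100 ng of Trizol-extracted total RNA was labelled with biotin. Each line is a single clone, so a difference between them is a difference between 2 clones and not between 2 kinds of AGM stroma. The labels do not say whether the 3 arrays of a line came from separate cultures, so p-values cover the spread between arrays alone, possibly a technical one. The other lines normalized together with the pair were 2012 (supportive) and AFT011 (non-supportive), both from C57BL/6 fetal liver of embryonic day 14.5, and 14F1-1 (supportive), from adult BALB/c bone marrow. UG26.1B6 (supportive) and UG26.3B5 (less supportive) share the tissue, day and strain of the pair but were normalized in another set.

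Stromal cells support stem cells through secreted cytokines and growth factors, through ligands and adhesion proteins on their surface, and through the matrix they lay down. In the AGM, mesenchymal cells under the aorta and in the nearby urogenital ridges supply BMP, Wnt, Notch and inflammatory signals that act on emerging stem cells. Mesenchymal stroma also carries a contractile programme, run by serum response factor (SRF) and its coactivators and by the YAP and TEAD proteins, which rises in cells under tension.

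Mesenchymal markers were high in both lines, as their label as stroma asks. Of 11 mesenchymal markers, 11 lay above the median signal of the normalization set (7.43 on the log2 scale) in AM14-1C4 and 10 in AM30-3F4; Vim, the mesenchymal intermediate filament protein, read 13.59, 13.59 and 13.55 in AM14-1C4 and 13.71, 13.76 and 13.73 in AM30-3F4. Of 8 hematopoietic and 8 endothelial markers, 0 lay above that median in either line, and Ptprc, the leukocyte antigen CD45, read 5.43 to 5.65, below the first quartile of the set (6.01). Of 7 gonad and mesonephros markers, 2 lay above the median in each line. In RNA from whole cultures, fewer cells of a type and less RNA per cell cannot be told apart.

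The arrays of a line were close to each other: the lowest correlation across all genes was 0.9977 within AM14-1C4 and 0.9985 within AM30-3F4, against 0.965 to 0.967 between the lines. AM14-1C4 replicate 3 nevertheless lay towards AM30-3F4 for one class of genes. Among the 107 genes that the other arrays of AM14-1C4 placed at least 2 log2 units below AM30-3F4, replicate 3 was the highest AM14-1C4 array in 89 (83.2%), with a median deviation of 0.27. The same check gave 9 of 100 genes (9.0%) for replicate 1 and 9 of 99 (9.09%) for replicate 2, and over all genes replicate 3 was the highest in 34.2%. Among the 145 genes placed as far above AM30-3F4, its median deviation was -0.03. The cause was not tested, and values without this array are given beside some of the results it touches, not all.

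AM14-1C4 and AM30-3F4 differed widely. Of 19938 genes, 6308 passed an adjusted p of 0.05 in limma, 31.6% of those tested, with 3166 higher in AM14-1C4 (15.9%) and 3142 lower (15.8%). At least 2-fold differences were found in 1189 genes (5.96%), of which 610 were higher and 579 lower in AM14-1C4; 256 genes reached 4-fold and 17 reached 16-fold. The median difference over all genes was 0.009. In 10038 genes (50.3%) every array of one line lay above every array of the other, so such separation was common. A gene was counted as alike when the 95% confidence interval of its difference lay within 1.5-fold either way (0.585 on the log2 scale), and 14737 genes (73.9%) met this. Among the 4374 genes at or above the third quartile of the set (9.19) in both, 2888 (66.0%) were alike. The 2 calls overlap, because 1623 genes passed the test and yet stayed within 1.5-fold; 516 genes met neither. The shares over all genes, set beside gene lists and overlaps below, include dim genes. Lists of bright genes can differ from them through signal level, which was not tested. Without AM14-1C4 replicate 3, 5676 genes passed, 1196 of them at 2-fold or more, and 14347 were alike.

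The largest difference in favour of AM14-1C4 was that of Dlk1. Dlk1, a transmembrane protein related to Notch ligands that stroma can use to act on stem cells, read 13.68, 13.71 and 13.66 in AM14-1C4 and 8.03, 8.12 and 8.13 in AM30-3F4, a difference of 5.59 ± 0.12 (SE, adjusted p = 4.39e-27), or 48.3-fold. Among the other lines of the set 2012 was also high, at a mean of 11.89, while AFT011 and 14F1-1 read 7.80 and 7.96. Nrn1, the neurite growth protein neuritin, read 12.24, 12.33 and 12.19 against 6.83, 6.58 and 6.80, 45.8-fold. Here AM30-3F4 stood apart from the set, since 2012, AFT011 and 14F1-1 averaged 11.98, 11.59 and 11.33. Cpb1, a carboxypeptidase, read 10.29, 10.28 and 10.32 against 5.38, 5.55 and 5.55, and its means in 2012, AFT011 and 14F1-1 were 5.44, 5.49 and 5.49, so that AM14-1C4 alone of the 5 lines was high.

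Cd34, a sialomucin carried by stem cells, endothelium and some stroma, read 10.95, 10.90 and 10.85 in AM14-1C4 and 6.36, 6.55 and 6.58 in AM30-3F4, 21.2-fold (adjusted p = 2.18e-25). Its mean was 11.49 in the non-supportive line AFT011, and 6.41 and 6.16 in the supportive lines 2012 and 14F1-1. The other genes among the 14 largest were Cck, the peptide hormone cholecystokinin (5.25 ± 0.09), Ifit1, an interferon-induced protein (4.80 ± 0.35), the chemokine Ccl5 (4.55 ± 0.12), the retinoic acid binding protein Crabp1 (4.41 ± 0.15) and the glutathione transferase Gsta4 (4.22 ± 0.22). They further held the complement protease C1s1 (4.14 ± 0.30), the heparin-binding growth factor Ptn (4.13 ± 0.20), the ETS transcription factor Etv1 (4.11 ± 0.14), lysozyme Lyz2 (4.00 ± 0.13) and the BMP antagonist Grem1 (3.97 ± 0.21).

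The largest difference in favour of AM30-3F4 was that of Fabp7. Fabp7, a fatty acid binding protein, read 6.15, 6.47 and 8.45 in AM14-1C4 and 12.38, 12.16 and 12.21 in AM30-3F4, a difference of -5.22 ± 0.31 (adjusted p = 2.25e-15), or 37.4-fold. Replicate 3 of AM14-1C4 was well above its partners, and without it the difference was -5.94. Fgf7, a growth factor that acts mainly on epithelium, read 6.92, 7.01 and 8.22 against 11.82, 11.83 and 11.81 (-4.43 ± 0.17), and -4.85 without that array. P2ry10b, a receptor of the purinergic family, read 4.72, 4.73 and 5.55 against 10.12, 10.08 and 10.00 (-5.07 ± 0.23). In each of these the groups stayed apart by more than 3 log2 units. The standard errors pool the spread over all confluent lines and do not show that of AM14-1C4 by itself. Its arrays had an SD of 1.24 for Fabp7, 0.73 for Fgf7 and 0.48 for P2ry10b.

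Eng, the TGF-beta co-receptor endoglin, read 7.41, 7.40 and 7.88 in AM14-1C4 and 11.34, 11.31 and 11.29 in AM30-3F4, 13.4-fold (adjusted p = 6.79e-20). AM30-3F4 alone was high in the set, with means of 7.28, 7.15 and 7.12 in 2012, AFT011 and 14F1-1. The rest of the 14 were Sorbs2 (-4.27 ± 0.24), an adaptor at actin structures, Fhl1 (-4.04 ± 0.23), Myl9 (-3.95 ± 0.31) and Tagln (-3.65 ± 0.27) of the contractile apparatus, Pdk4 (-3.71 ± 0.21), a kinase that shuts off pyruvate dehydrogenase, and Smim20 (-3.68 ± 0.14). They also held F11r (-3.67 ± 0.15), a junctional adhesion molecule, Lrrc32 (-3.67 ± 0.20), which holds latent TGF-beta at the cell surface, the collagen chain Col5a2 (-3.54 ± 0.12) and Pcolce2 (-3.53 ± 0.26), an enhancer of procollagen processing. Without AM14-1C4 replicate 3, these 14 differences grew by 0.10 to 0.71 in size, while the 14 largest positive ones moved by -0.04 to 0.03.

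**Figure D1:**
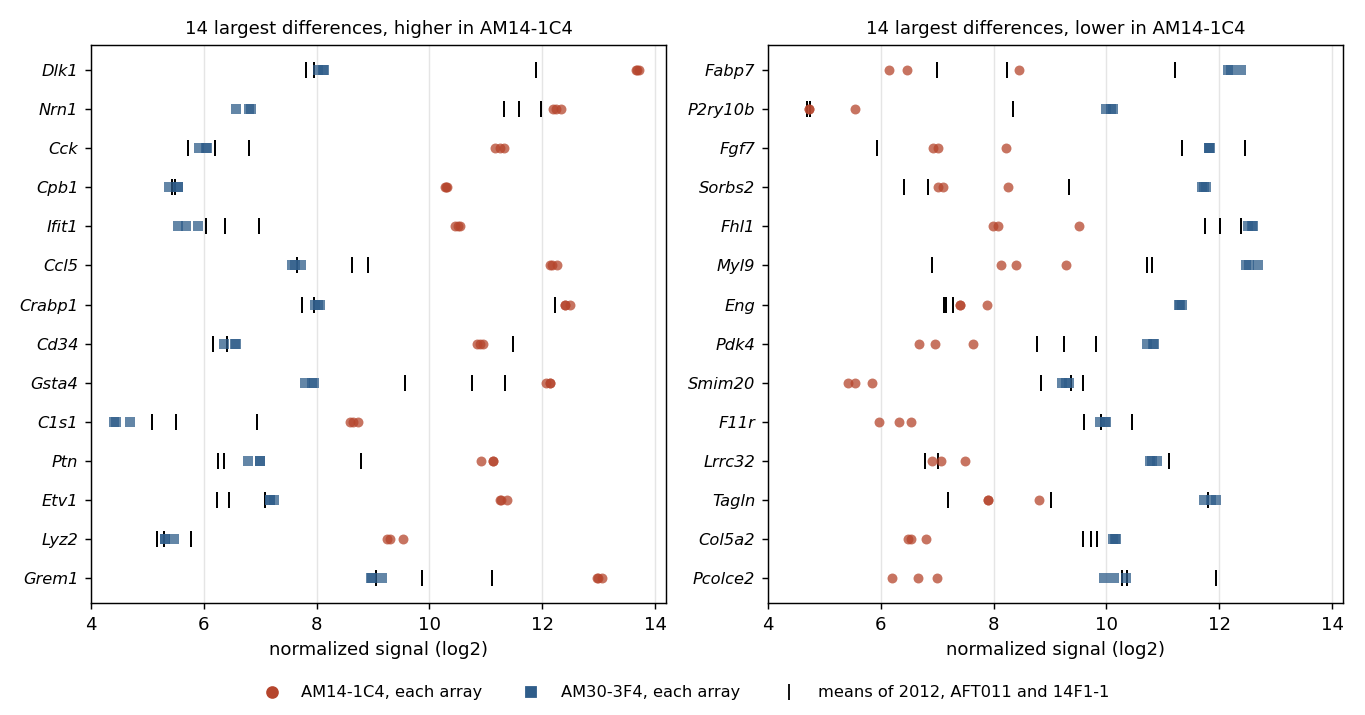
Normalized log2 signal of the 14 genes with the largest differences in each direction, with circles for the 3 AM14-1C4 arrays, squares for the 3 AM30-3F4 arrays and ticks for the means of 2012, AFT011 and 14F1-1. Genes were picked only among those whose circles and squares do not overlap. In the right panel 1 circle, replicate 3, often lies to the right of the other circles (Fabp7 8.45 against 6.15 and 6.47).

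Factors that stroma offers to stem cells did not move as a block. Of 39 measured hematopoietic stem cell niche factors, 13 were higher in AM14-1C4, 8 were lower and 15 were alike. Of the 39, 53.8% passed, against 31.6% of all genes, and 73.9% of all genes were alike. Their median difference was -0.006, against 0.009 over all genes. Among the cytokines and chemokines, Kitl, the ligand of the stem cell receptor Kit, read 10.83, 10.65 and 10.64 in AM14-1C4 and 8.56, 8.49 and 8.52 in AM30-3F4 (2.18 ± 0.21). Il6 read 9.06, 8.92 and 9.33 against 6.27, 5.76 and 5.61 (3.22 ± 0.15). Cxcl12, the chemokine that retains stem cells in marrow, read 11.23, 11.16 and 11.23 against 11.23, 11.29 and 11.30. For Cxcl12 the groups touched at the printed precision and did not overlap unrounded, and it was alike, with an interval of its difference from -0.45 to 0.32. In all, 4 of the 8 cytokines and chemokines were higher in AM14-1C4 and 1, Csf1 (-0.38), was lower.

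Among 12 growth factors of this group, 3 were higher in AM14-1C4 and 4 lower. Igf2, an imprinted fetal growth factor, read 10.99, 10.90 and 10.83 in AM14-1C4 and 6.99, 7.13 and 6.98 in AM30-3F4 (3.88 ± 0.13), and Ptn and Hgf (2.50 ± 0.18) were higher too. On the other side stood Fgf7, Bmp4 (-1.52 ± 0.38), Fgf2 (-0.73) and Tgfb1 (-0.68). Vegfa was alike, with a difference of -0.01 and an interval from -0.29 to 0.27. Of 9 adhesion and matrix proteins, 4 were higher, led by Vcam1, the adhesion molecule bound by the integrin alpha-4 of blood cells, which read 11.37, 11.28 and 11.27 against 7.91, 7.78 and 7.62. Cdh2 (N-cadherin) and Ncam1 were lower (-0.84 and -0.27), Ncam1 still within 1.5-fold, and Tnc was alike (-0.02, interval from -0.48 to 0.45). Of 6 surface ligands, Dlk1 was higher and Jag1 lower. Angpt1, the ligand of the Tie2 receptor, read 8.37, 8.12 and 8.39 against 6.30, 6.27 and 6.28, with no overlap.

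Notch genes had members on both sides. Jag1, a Notch ligand, read 7.06, 6.89 and 7.11 in AM14-1C4 and 9.25, 9.19 and 9.28 in AM30-3F4 (-2.22 ± 0.18, adjusted p = 4.62e-12), while Dlk1 and Dlk2 (0.73) were higher. Of 8 targets and modulators of the pathway, 4 were lower in AM14-1C4 and 0 higher, with a median of -0.74, and the other 4 did not pass. Hes1, a repressor induced by Notch, read 7.30, 7.46 and 7.30 against 9.04, 8.87 and 8.90, with all AM30-3F4 arrays above all AM14-1C4 arrays. Hey1 (-1.86 ± 0.11), Hey2 (-1.44 ± 0.15) and Lfng (-1.30 ± 0.12), a glycosyltransferase that tunes Notch receptors, were lower as well. The receptor Notch3 was higher (1.23 ± 0.28), Notch2 differed by 0.27 and stayed within 1.5-fold, and over the whole list 4 of 19 were higher and 5 lower, so that 47.4% passed, against 31.6% of all genes.

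In the TGF-beta and BMP pathway, 17 of 53 genes were higher in AM14-1C4 (32.1%, against 15.9% of all genes) and 16 lower (30.2%, against 15.8%), with a median of 0.022. Among 13 secreted antagonists and latency proteins 8 were higher and 2 lower, with a median of 0.781. Grem1, a BMP antagonist, read 12.97, 12.99 and 13.06 against 9.16, 8.99 and 8.96. Ltbp2, a latent TGF-beta binding family member, read 11.10, 11.05 and 10.98 against 7.44, 7.43 and 7.40, and both genes were far outside the spread of either line. Among 15 ligands, 2 were higher and 5 lower, the lower ones being Bmp4 (-1.52), Tgfb2 (-1.46), Tgfb3 (-1.25), Inhba (-1.14) and Tgfb1 (-0.68). Among 12 receptors, 2 were higher, Tgfbr3 (2.04 ± 0.15) and Tgfbr2 (0.53), and 5 lower, with Eng the furthest and Bmpr2 (-0.96) next. Smad5, a signal transducer of BMP receptors, was alike (0.19, interval from 0.08 to 0.30), as was the receptor Bmpr1a (-0.13). Tgfbi, a matrix protein induced by TGF-beta, was higher in AM14-1C4 (2.25 ± 0.32), and Id3, a target of BMP signals, was lower (-1.08).

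In the Wnt pathway 11 of 50 genes were higher in AM14-1C4 (22.0%, against 15.9% of all genes) and 12 lower (24.0%, against 15.8%). The median was -0.016, and 30 of the 50 were alike, against 73.9% of all genes. With the spread taken from the 6 arrays of the pair, 17 were higher and 16 lower. The antagonist Sfrp1 read 9.88, 9.85 and 10.26 in AM14-1C4 and 7.46, 7.55 and 7.54 in AM30-3F4 (2.48 ± 0.19). The ligand Wnt5a ran the other way, at 8.12, 8.10 and 8.12 against 10.53, 10.41 and 10.44 (-2.35 ± 0.19). Dkk3 was higher (2.05 ± 0.25), and the receptors Fzd6 (-1.63 ± 0.13) and Ror1 (-1.13 ± 0.12) and the inhibitor Nkd2 (-1.44 ± 0.11) were lower. Ctnnb1, the pathway's effector beta-catenin, read 11.68 to 11.73 against 11.66 to 11.70, with an interval from -0.14 to 0.17, and the co-receptors Lrp5 (0.20) and Lrp6 (0.14) were alike too.

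Other growth factor families had members on both sides. Of 14 IGF genes, 6 were higher in AM14-1C4 (42.9%, against 15.9% of all genes) and 3 lower (21.4%, against 15.8%). The binding proteins Igfbp4 (2.94 ± 0.14) and Igfbp3 (2.61 ± 0.11) stood behind Igf2, and the receptor Igf1r was lower (-0.75 ± 0.13). Of 44 genes for FGF, PDGF, VEGF, HGF and related ligands and receptors, 11 were higher and 12 lower, so that 52.3% passed, against 31.6% of all genes. Fgf10, which like Fgf7 signals from mesenchyme to epithelium, read 9.78, 9.76 and 9.77 in AM14-1C4 and 6.50, 6.32 and 6.56 in AM30-3F4, opposite to Fgf7. Gas6, a ligand of the receptor Axl (2.40 ± 0.18), and Vegfd (1.91 ± 0.14) were higher and Pdgfd was lower (-2.01 ± 0.19), while Axl itself stayed within 1.5-fold (-0.35).

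Of 51 chemokines, cytokines and their receptors, 18 were higher in AM14-1C4 (35.3%, against 15.9% of all genes) and 6 lower (11.8%, against 15.8%), with a median of 0.133; with the spread taken from the 6 arrays of the pair, 20 were higher and 10 lower. Ccl5, which draws T cells and monocytes, read 12.13, 12.26 and 12.17 in AM14-1C4 and 7.73, 7.56 and 7.61 in AM30-3F4 (adjusted p = 1.84e-24). Ccl2, a monocyte chemokine, read 12.53, 12.51 and 12.51 against 9.99, 9.89 and 9.89. Ccl7 (3.22 ± 0.21), Cxcl10 (3.22 ± 0.18) and the alarmin Il33 (2.68 ± 0.14) were higher as well. For these genes the groups did not overlap, as in 50.3% of all genes. The gene furthest the other way was Tnfrsf11b, the decoy receptor osteoprotegerin, at 8.63, 8.48 and 8.81 against 11.61, 11.67 and 11.58. The receptor subunits Il6st (0.28) and Il4ra (-0.03) were alike.

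Genes induced by interferon were higher in AM14-1C4 or did not pass. Of 35 measured, 22 were higher (62.9%, against 15.9% of all genes), 0 were lower and 10 were alike, with a median of 0.695. At an unadjusted p under 0.05 in the same limma fit the count of lower genes was 0 as well. So were the counts of lower genes given here as 0 for complement, sterol and Hox B genes. The same held for lower genes in the runs from Yeats4, from Dlk1 and of beta protocadherins. For Notch targets and Hox D genes it was the count of higher genes that stayed at 0. Ifit1, an antiviral RNA-binding protein, read 10.55, 10.51 and 10.46 in AM14-1C4 and 5.68, 5.90 and 5.54 in AM30-3F4 (adjusted p = 3.73e-13). Its means in 2012, AFT011 and 14F1-1 were 6.38, 6.99 and 6.04, so AM14-1C4 alone of the set was high. Ifit3 (3.26 ± 0.44), the helicase Ddx60 (3.20 ± 0.27), Rtp4 (2.75 ± 0.25), Rsad2 (2.60 ± 0.28) and Oasl2 (2.11 ± 0.31) followed. The sensor Ifih1 (1.89) and the transcription factors Irf9 (1.32), Irf1 (1.14) and Stat2 (0.79) were higher too. Not every member took part, since Mx1 was alike (0.08, interval from -0.08 to 0.23) and Ifit2, Oas1a, Oas3 and Irf7 had differences of -0.01, -0.02, -0.03 and -0.06. Without AM14-1C4 replicate 3, 20 members were higher.

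Interferon acts on such genes through the interferon-stimulated response element (ISRE), and promoters of the 3 induced genes with the largest differences are shown because each holds the core of that element more than once. The sequences are from RefSeq (GRCm38.p6), the 200 bases before each annotated start, 5′ to 3′, with each match to the core GAAANNGAAA, on either strand, in capitals. For a gene with several annotated starts, the first window that held a match was taken.
Ifit1 promoter, chr19:34640689-34640888, plus strand: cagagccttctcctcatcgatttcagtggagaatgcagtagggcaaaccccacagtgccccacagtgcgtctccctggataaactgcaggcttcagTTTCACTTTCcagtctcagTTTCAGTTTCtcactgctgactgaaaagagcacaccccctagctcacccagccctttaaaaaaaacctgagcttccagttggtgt
Ifit3 promoter, chr19:34583329-34583528, plus strand: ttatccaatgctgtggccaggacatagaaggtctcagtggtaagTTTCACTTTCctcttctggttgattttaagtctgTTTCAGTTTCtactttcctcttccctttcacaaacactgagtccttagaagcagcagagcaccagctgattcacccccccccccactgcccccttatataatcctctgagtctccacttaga
Ddx60 promoter, chr8:61927887-61928086, plus strand: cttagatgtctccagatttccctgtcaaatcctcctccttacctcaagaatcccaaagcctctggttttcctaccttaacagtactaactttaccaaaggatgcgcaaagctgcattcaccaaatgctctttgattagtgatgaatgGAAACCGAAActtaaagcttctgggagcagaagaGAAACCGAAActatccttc
The matches begin 104 and 85 bases before the start in Ifit1, 156 and 122 in Ifit3, and 53 and 19 in Ddx60. The core was searched in windows from 250 bases before to 50 after each start, overlapping matches included. It was present in 1131 of 32851 windows of the table (3.44%) and in 607 of the 15614 measured genes with a window (3.89%). Of the 27 interferon list members with a window, 13 held it, 9 of the 17 that were higher and 4 of the 10 that did not pass. A match describes the letters and not a bound site.

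Of 22 complement and acute-phase genes, 10 were higher in AM14-1C4 (45.5%, against 15.9% of all genes), 0 were lower and 12 did not pass, with a median of 0.409. C1s1, a protease of the first complement component, read 8.64, 8.60 and 8.73 in AM14-1C4 and 4.70, 4.44 and 4.41 in AM30-3F4. The copper carrier Cp (2.76 ± 0.22), the iron-siderophore binder Lcn2 (2.41 ± 0.14), the endotoxin binder Lbp (1.71 ± 0.16), Serpina3n (1.34 ± 0.24) and Ptx3 (1.28 ± 0.25) were also higher. Of 26 genes of prostaglandin and lysophospholipid signalling, 11 were higher (42.3%) and 2 lower (7.69%). The sphingosine-1-phosphate receptor S1pr3 read 10.73, 10.73 and 10.72 against 7.15, 7.08 and 6.87, the prostaglandin receptor Ptgfr differed by 2.52 ± 0.19 and the prostacyclin synthase Ptgis by 2.16 ± 0.14.

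Contractile and cytoskeletal genes that passed were mostly lower in AM14-1C4. Of 25 targets of SRF and YAP, 19 were lower (76.0%, against 15.8% of all genes), 2 were higher and 4 were alike, with a median of -0.916. Fhl1, a LIM-domain protein of muscle and stroma, read 8.08, 7.98 and 9.51 in AM14-1C4 and 12.60, 12.58 and 12.51 in AM30-3F4. Myl9, the regulatory light chain of non-muscle and smooth muscle myosin, read 8.13, 8.39 and 9.29 against 12.52, 12.68 and 12.47. Tagln, an actin-binding protein, read 7.90, 7.90 and 8.80 against 11.95, 11.73 and 11.86. In all 3 genes the AM14-1C4 replicate 3 was the highest of its line and still more than 2 log2 units below every AM30-3F4 array; without it the differences were -4.53, -4.30 and -3.95.

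Actg2 (-3.34 ± 0.14), Cnn1 (-3.0 ± 0.13), the YAP target Ccn2 (-2.45 ± 0.32), Vcl (-1.69), Acta2 (-1.53) and Srf itself (-1.33) were lower as well. The members that were higher were Nt5e, the ectonucleotidase CD73 (2.56 ± 0.13), and the immediate-early factor Egr1 (1.29). Lats2 (-0.09) and F3 (0.11) were alike, and Axl passed the test but stayed within 1.5-fold. The list of smooth muscle and pericyte markers shares several of these genes, and 13 of its 23 members were lower (56.5%) and 4 higher (17.4%), with a median of -0.595. Its lower members included the intermediate filament Nes (-3.16 ± 0.22) and the tropomyosin Tpm2 (-1.96 ± 0.08). Its higher ones included the pericyte genes Cspg4 (1.44 ± 0.11) and Notch3. Cald1 (-0.17) and Tpm1 (-0.26) stayed within 1.5-fold. Without AM14-1C4 replicate 3, 19 SRF and YAP targets and 12 smooth muscle genes were lower.

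SRF binds the CArG box, and the promoters of Fhl1 and Myl9, the 2 members of the list with the largest differences, are shown because each holds one. They are the 200 bases before the start in RefSeq (GRCm38.p6), 5′ to 3′, with the CArG box in capitals. For a gene with several annotated starts, the first window that held the box was taken.
Fhl1 promoter, chrX:56779483-56779682, plus strand: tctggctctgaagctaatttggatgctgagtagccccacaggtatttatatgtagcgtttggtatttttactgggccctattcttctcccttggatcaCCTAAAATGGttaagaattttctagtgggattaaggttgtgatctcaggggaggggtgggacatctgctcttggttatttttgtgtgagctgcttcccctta
Myl9 promoter, chr2:156775264-156775463, plus strand: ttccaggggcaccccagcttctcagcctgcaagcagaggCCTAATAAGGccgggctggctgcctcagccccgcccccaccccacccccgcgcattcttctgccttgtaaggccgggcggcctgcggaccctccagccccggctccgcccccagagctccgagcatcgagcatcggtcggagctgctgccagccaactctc
The box begins 102 bases before the start in Fhl1 and 161 in Myl9. In windows of the same extent as above it occurred in 535 of 32851 (1.63%), and in 7 of the 20 list members with a window, 7 of the 16 that passed and 0 of the 4 that did not. The search says nothing about binding.

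**Figure D2:**
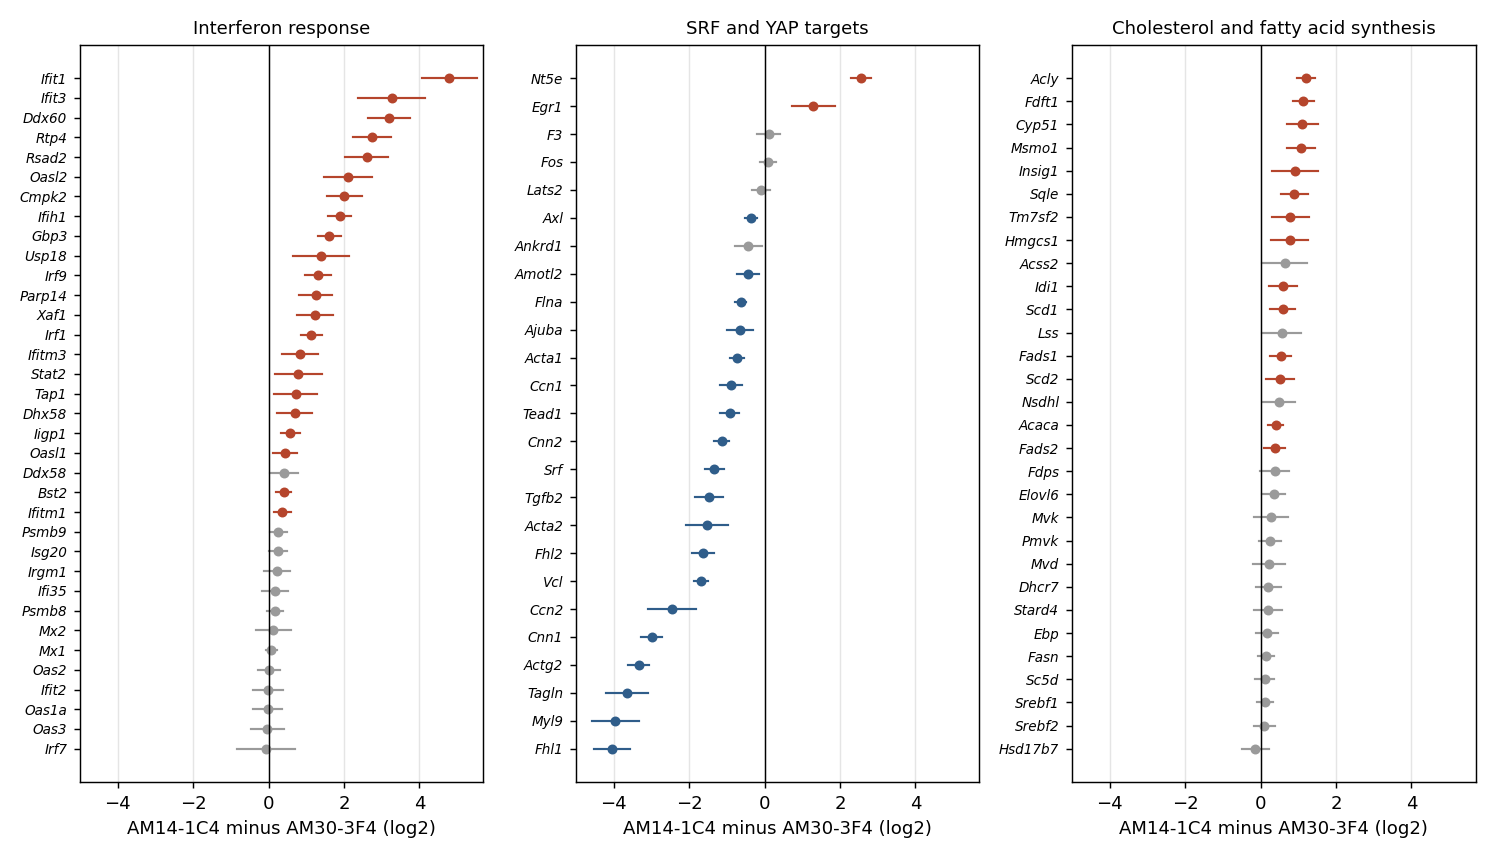
Difference between AM14-1C4 and AM30-3F4 (log2) for every measured member of 3 gene lists, with points for the estimate and bars for its 95% confidence interval, red where higher in AM14-1C4, blue where lower and grey where the adjusted p did not pass 0.05. Interferon genes run from -0.06 to 4.80 with 22 red, SRF and YAP targets from -4.04 to 2.56 with 19 blue, and cholesterol and fatty acid genes from -0.14 to 1.22 with 14 red.

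Among matrix genes, those of basement membranes and integrins that passed were lower in AM14-1C4 with 1 exception. Of 38, 17 were lower (44.7%, against 15.8% of all genes) and 1 was higher (Itgb7, 0.48), with a median of -0.146. Of the same 38, 19 were alike, against 73.9% of all genes. The paired collagen IV chains moved together: Col4a1 read 8.03, 8.10 and 8.20 in AM14-1C4 and 9.97, 10.01 and 9.99 in AM30-3F4, and Col4a2 read 8.0, 8.09 and 8.17 against 9.86, 9.85 and 9.90. Itgb1, the subunit shared by most matrix-binding integrins, read 10.62, 10.59 and 10.79 against 11.89, 11.92 and 11.97. For these 3 genes, as for 50.3% of all genes, no array of one line entered the range of the other. Itgb3 (-1.36 ± 0.15), Itga11 (-1.21 ± 0.20), Nid2 (-1.17 ± 0.13) and Lama5 (-1.01) were lower too, and the laminin chains Lamb1 (-0.08) and Lamb2 (-0.02) were alike.

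Interstitial collagens went both ways, 3 of 17 higher (17.6%) and 6 lower (35.3%). The 2 chains of collagen I moved apart: Col1a2 read 11.71, 11.67 and 11.70 in AM14-1C4 and 9.95, 9.91 and 9.94 in AM30-3F4, while Col1a1 read 10.78, 10.88 and 10.92 against 11.81, 11.86 and 11.90. The chains of collagen V also differed from each other. Col5a2 was 11.7-fold lower, with 6.48, 6.54 and 6.80 against 10.12, 10.17 and 10.15, whereas Col5a1 was alike, with an interval from -0.19 to 0.16. Of 47 small leucine-rich proteoglycans and matricellular proteins, 9 were higher (19.1%) and 8 lower (17.0%), shares near those of all genes (15.9% and 15.8%), and with the spread taken from the 6 arrays of the pair 14 were higher and 13 lower. The largest differences were those of Mfap2 (3.20 ± 0.14) and decorin, Dcn (3.18 ± 0.18), on one side and Efemp1 (-2.67 ± 0.13) and Mfap5 (-2.59 ± 0.13) on the other. Sparc (0.16) and Bgn (0.07), both high in the lines, were alike.

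Of 24 surface markers used to define stroma, 9 were higher in AM14-1C4 (37.5%), 5 were lower (20.8%) and 10 were alike. Over all genes 15.9% were higher, 15.8% lower and 73.9% alike. Besides Cd34, Vcam1 and Nt5e, the podoplanin gene Pdpn read 11.24, 11.24 and 11.09 in AM14-1C4 and 8.37, 8.26 and 8.18 in AM30-3F4, and the PDGF receptor Pdgfra read 10.56, 10.44 and 10.49 against 8.94, 8.72 and 8.85. Eng was the furthest in the other direction. Cd44 (-0.09), Cd81 (0.02) and Cd9 (0.03) were alike. Epithelial and mesothelial genes held single large differences on both sides, Bnc1 at 3.24 ± 0.14 and Krt7 at -3.47 ± 0.12. Of the 21 measured, 2 were higher, 3 lower and 15 alike. Thus 23.8% passed, against 31.6% of all genes.

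Transcription factors of position and mesoderm also differed. Of 37 Hox genes, 13 were higher (35.1%, against 15.9% of all genes) and 9 lower (24.3%, against 15.8%). Hoxc8 read 9.64, 9.52 and 9.67 in AM14-1C4 and 6.91, 7.02 and 6.85 in AM30-3F4, Hoxa6 differed by 1.91 ± 0.15 and Hoxa5 by 1.34 ± 0.17, and Hoxc13 (-1.83 ± 0.18) and Hoxa9 (-1.22 ± 0.12) were lower. In the B cluster 6 of 9 were higher and 0 lower; in the A cluster 5 of 10 were higher and 3 lower, the lower ones being Hoxa9, Hoxa10 (-0.70) and Hoxa11 (-0.61). The D cluster had 2 of 9 lower (22.2%, against 15.8% of all genes) and 0 higher. Of 64 mesoderm transcription factors, 12 were higher (18.8%, near the 15.9% of all genes) and 20 lower (31.2%, against 15.8%). Among them were Osr1 (2.47 ± 0.20), a factor of intermediate mesoderm, and Foxc2 (-2.0 ± 0.15), Ebf3 (-1.92 ± 0.12) and Gata3 (-1.89 ± 0.20). Ebf1 (0.02) and Tbx15 (-0.05) were alike. Among 20 urogenital genes 6 were higher and 4 lower, with Sox9 at 10.78, 10.83 and 10.94 against 8.06, 7.93 and 7.99.

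Of 30 sterol and fatty acid genes, 14 were higher in AM14-1C4 (46.7%, against 15.9% of all genes), 0 were lower, 16 did not pass and 9 were alike, with a median of 0.443. Acly, which makes cytosolic acetyl-CoA, read 11.36, 11.34 and 11.24 in AM14-1C4 and 10.10, 10.11 and 10.08 in AM30-3F4 (1.22 ± 0.12), and Fdft1, Cyp51 and Msmo1 of the sterol pathway differed by 1.14 ± 0.13, 1.11 ± 0.20 and 1.08 ± 0.18. Fasn (0.16) and the regulator Srebf2 (0.10) were alike. The count depended on the fit, with 24 higher when the spread came from the 15 arrays of the set alone and 11 without AM14-1C4 replicate 3. Of 39 cell cycle genes, 17 were lower (43.6%, against 15.8% of all genes), 6 were higher (15.4%) and 24 were alike (against 73.9% of all genes). Their differences were small, since 1 reached 2-fold and the median was -0.165. All 39 lay above the set median in both lines, so the shares over all genes, dim ones included, are an unlike measure. Of genes at or above the third quartile in both lines, 66.0% were alike. The cyclin Ccne2 was lowest (-1.41 ± 0.12), replication licensing genes Mcm6 (-0.80), Mcm3 (-0.72) and Mcm4 (-0.62) were lower, and Mki67 (-0.16), Ccna2 (0.06) and Kif23 (-0.06) were alike.

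**Figure D3:**
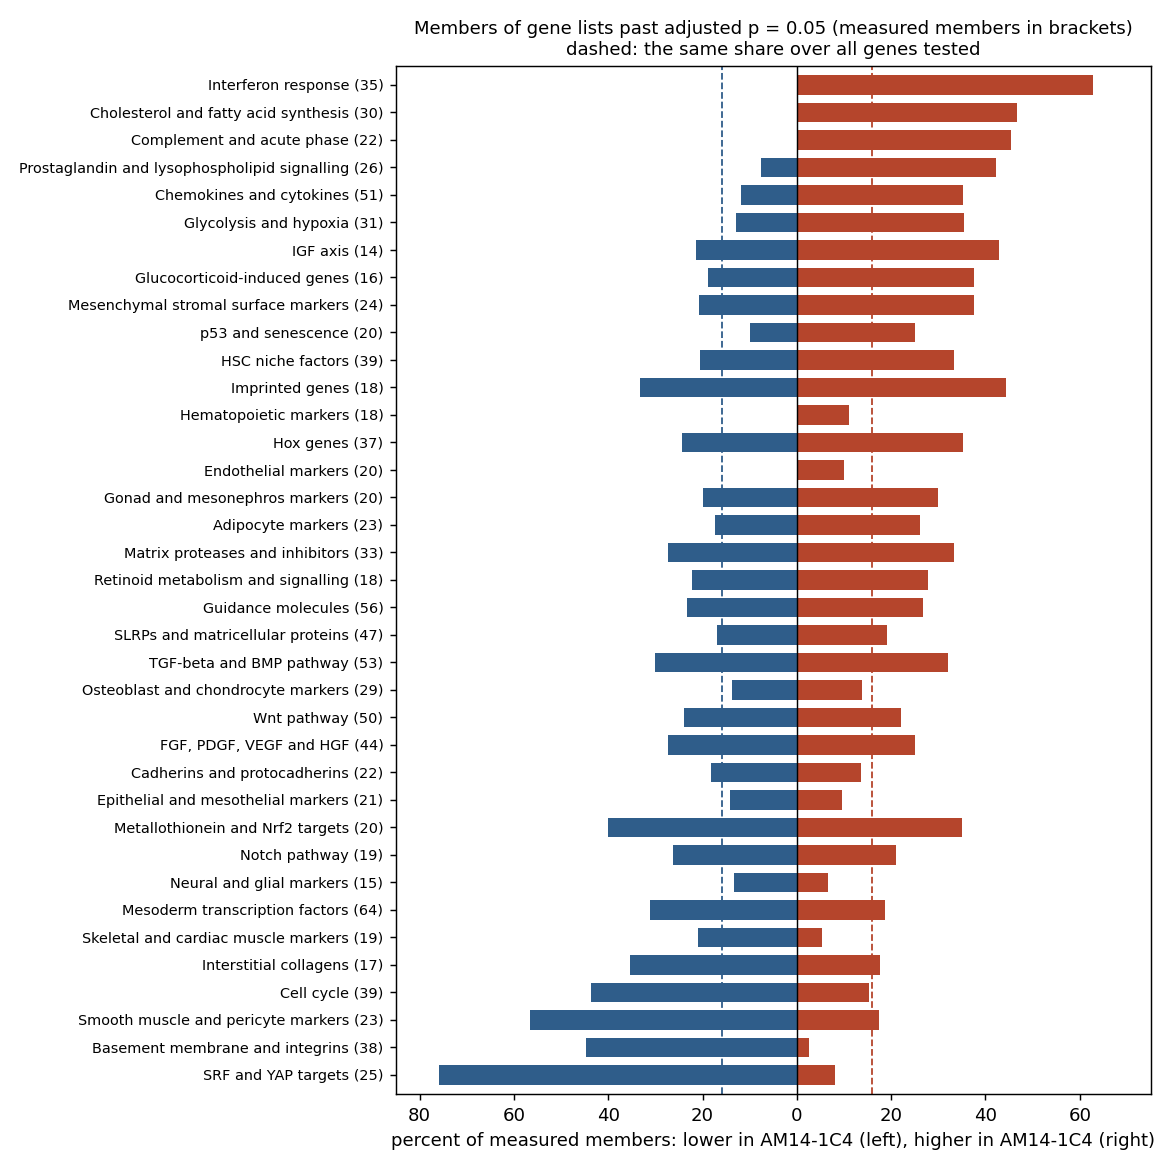
Percent of the measured members of each gene list that passed an adjusted p of 0.05, lower in AM14-1C4 to the left and higher to the right, ordered by the share higher minus the share lower; the number measured is in brackets. Dashed lines mark the share over all genes, 15.8% lower and 15.9% higher.

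Hematopoietic and endothelial genes were mostly low and mostly alike. Of 18 hematopoietic genes, 2 lay above the set median in AM14-1C4 and 1 in AM30-3F4, with highest means of 9.36 and 8.73. Of 20 endothelial genes, 1 lay above it in each line. Low signals are compressed, so being alike says less for such genes. Of 20 endothelial genes all 20 were alike, against 73.9% of all genes, and 2 of them (Egfl7 0.28, Ramp2 0.31) passed the test. Neither passed without AM14-1C4 replicate 2, and Ramp2 also missed it without AM14-1C4 replicate 1 or any 1 array of AM30-3F4. Of 18 hematopoietic genes 16 were alike, and Lyz2 and Csf1r were higher in AM14-1C4. Csf1r, the receptor of the macrophage growth factor, read 7.43, 7.34 and 7.29 against 6.34, 6.29 and 6.25, at or below the median of the set. Spi1, the factor that defines the myeloid lineage, read 5.16 to 5.32 in AM14-1C4 and 5.29 to 5.31 in AM30-3F4, and Itgam differed by 0.01. Xist, which coats the inactive X chromosome, read 12.30, 12.29 and 12.27 against 11.85, 11.85 and 11.92, high in both lines, with means of 5.6, 5.56 and 5.74 in 2012, AFT011 and 14F1-1.

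Lyz2 lies in a run of neighbouring genes that were higher together. The run from Yeats4 to Dyrk2 on chromosome 10 was chosen after its values were seen. In it 11 of 14 measured genes were higher in AM14-1C4, 0 were lower and 9 reached 2-fold, with a median of 1.73. Over all genes 15.9% were higher, 15.8% lower and 5.96% reached 2-fold. Yeats4, a chromatin reader, read 12.22, 12.23 and 12.18 in AM14-1C4 and 9.50, 9.48 and 9.47 in AM30-3F4. Lyz2 read 9.25, 9.54 and 9.30 against 5.31, 5.31 and 5.48. Mdm1, a centriole protein, read 11.24, 11.27 and 11.24 against 7.98, 8.05 and 7.89. The groups were apart by more than 2 log2 units in each. The p53 ligase gene Mdm2 lies in the run and differed by 1.02 ± 0.16, as did Cpsf6 (2.43 ± 0.08), Nup107 (2.48 ± 0.11), Slc35e3 (3.05 ± 0.11), Dyrk2 (3.12 ± 0.11), Rap1b (1.04 ± 0.07), Cpm (0.95 ± 0.10) and Lyz1 (0.60 ± 0.10), a paralog of Lyz2. Ifng (0.04), Iltifb (0.15) and 9530003J23Rik (0.20), all at 6.80 or less, did not pass. The nearest measured genes outside, Cct2 and Cand1, differed by -0.27 and -0.14. Against 2012, AFT011 and 14F1-1 the median of the run was 1.91, 1.92 and 1.46 for AM14-1C4 and -0.08, 0.01 and -0.12 for AM30-3F4; these comparisons share arrays. Copy number was not measured, and its part was not tested.

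A second run was the imprinted domain from Dlk1 to Dio3 on chromosome 12, where the paternal chromosome expresses protein-coding genes and the maternal one a string of noncoding RNAs and miRNAs. Of 47 measured transcripts there, 40 of them miRNA genes, 45 were higher in AM14-1C4 and 0 lower. Of all genes, 15.9% were higher and 15.8% lower. In the domain 23 differed by 2-fold or more, against 5.96% of all genes, and the median was 0.96. Mature miRNAs made in this domain are shown for the 6 miRNA genes with the largest differences (3p arms) and for the pairs of different genes that share a seed, bases 2 to 8, given in capitals. The sequences are from RefSeq (GRCm38.p6), 5′ to 3′; all 40 genes matched, with 76 mature sequences, 74 seeds and 2 seeds used by more than 1 gene.
mmu-miR-380-3p: uAUGUAGUaugguccacaucuu
mmu-miR-377-3p: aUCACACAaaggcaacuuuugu
mmu-miR-323-3p: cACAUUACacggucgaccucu
mmu-miR-382-3p: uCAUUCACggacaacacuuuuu
mmu-miR-300-3p: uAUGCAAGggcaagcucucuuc
mmu-miR-411-3p: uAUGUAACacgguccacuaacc
mmu-miR-379-3p: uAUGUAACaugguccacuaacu
mmu-miR-376b-5p: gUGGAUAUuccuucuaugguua
mmu-miR-376c-5p: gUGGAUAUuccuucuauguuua
The seed AUGUAAC is shared by the 3p arms of miR-411 and miR-379, and UGGAUAU by the 5p arms of miR-376b and miR-376c. Labelled cDNA from total RNA does not separate a mature miRNA from its hairpin or host transcript, so the values belong to the locus.

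Mir380 read 7.81, 7.76 and 7.27 in AM14-1C4 and 4.41, 4.59 and 4.40 in AM30-3F4 (3.15 ± 0.12, adjusted p = 2.19e-20). Mir377 read 8.0, 8.06 and 8.35 against 5.37, 5.0 and 5.03 (3.00 ± 0.09). Mir323 (2.62), Mir382 (2.41), Mir300 (2.35) and Mir411 (2.04) followed, and no AM30-3F4 array of Mir380 or Mir377 entered the AM14-1C4 range. Of the seed pairs, Mir379 differed by 1.59 beside Mir411, and Mir376b by 1.14 beside 0.15 for Mir376c. The maternal noncoding RNA Meg3 read 10.78, 10.86 and 10.89 against 8.04, 7.96 and 7.96 (2.86 ± 0.12), and Rian, a snoRNA and miRNA host, differed by 1.91 ± 0.14. Of the paternal genes, Dlk1 was 48.3-fold higher, Rtl1 was higher by 0.59 and Dio3 did not pass (-0.16, adjusted p = 0.524), so maternal and paternal transcripts were both higher.

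The other pair of AGM lines gave the opposite for the noncoding part. In UG26.1B6 minus UG26.3B5, 40 of the 47 transcripts were lower, with a median of -0.81. In that contrast 8.56% of all genes were called in either direction. Meg3 differed by -3.53, Mir380 by -2.72 and Mir377 by -3.06, and Dlk1 by 0.33 (adjusted p = 0.106). The supportive line of that pair was thus the lower one for Meg3, while the 2 AM lines, both supportive, differed from each other. AM30-3F4, the lower of them at a mean of 7.99, was still above 2012, AFT011 and 14F1-1 (6.48, 6.22 and 6.40). A list of 18 imprinted growth genes, which includes Dlk1, Meg3 and Rian of this domain, had 8 higher and 6 lower in AM14-1C4. These are 44.4% and 33.3%, against 15.9% and 15.8% of all genes. Beyond this domain, Mest was higher (1.80 ± 0.17) and Plagl1 (-1.67), Peg3 (-1.47) and Cdkn1c (-1.12) were lower.

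Clusters of near-identical copies, in which transcripts of one gene can hybridise to probes of another, also held runs. Over all genes 15.9% were higher in AM14-1C4 and 15.8% lower. Of 22 beta protocadherins, which are neuronal adhesion proteins, 18 were higher and 0 lower, with a median of 0.51. The furthest were Pcdhb16 (2.69 ± 0.12) and Pcdhb19 (2.28 ± 0.18). Of 14 genes in the Lce1 cluster of epidermal envelope proteins, 8 were lower and 0 higher, with a median of -0.41 and Lce1h the furthest, at 7.45, 7.44 and 8.11 against 11.27, 11.07 and 10.86.

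**Figure D4:**
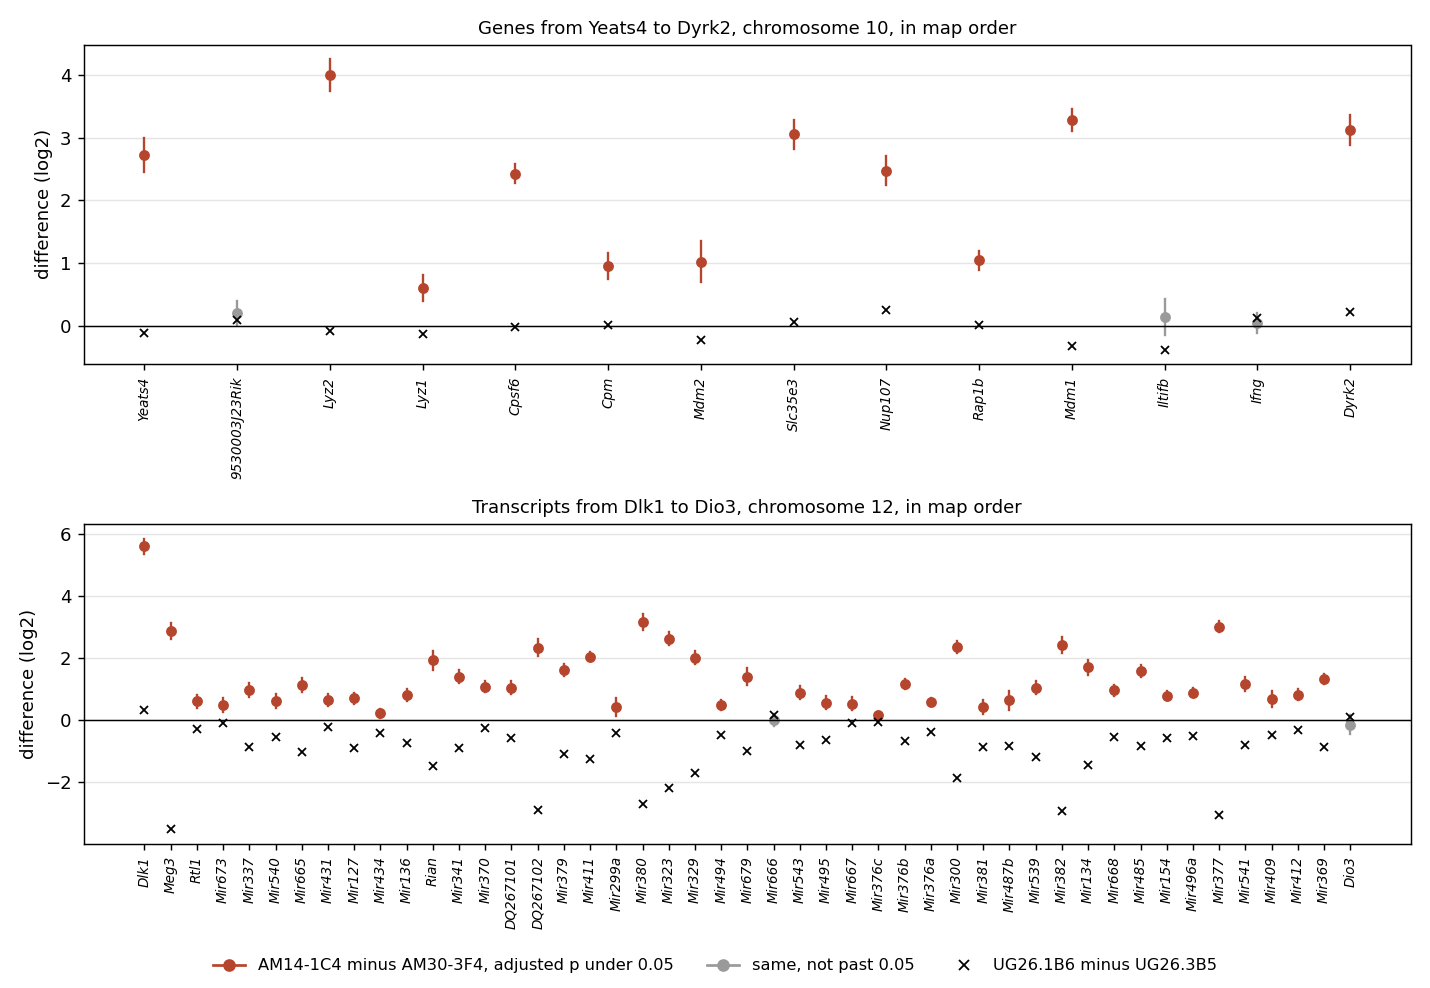
Differences (log2) of measured transcripts in map order, from Yeats4 to Dyrk2 in the upper panel and from Dlk1 to Dio3 in the lower; points and bars are AM14-1C4 minus AM30-3F4 with its 95% confidence interval, red where the adjusted p passed 0.05 and grey where it did not, and crosses are UG26.1B6 minus UG26.3B5. In the upper panel the crosses lie near 0 beside points of up to 4.00; in the lower panel points lie above 0 while most crosses lie below it, as in Meg3 with 2.86 and -3.53.

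Whole chromosomes differed in the share of genes called, a view also chosen after the values were seen. On chromosome 4, 40.2% of 1154 genes were lower in AM14-1C4 and 3.47% higher, and chromosomes 1 (30.7% lower, 8.29% higher), 16 (26.2% and 8.49%), 10 (24.7% and 10.3%) and 7 (21.3% and 5.13%) leaned the same way. Chromosome 18 leaned the other way, with 35.5% of 471 genes higher and 5.73% lower, and so by smaller margins did chromosomes 8 (28.1% higher, 15.7% lower), 12 (25.3% and 8.13%), 5 (24.0% and 9.74%) and 11 (21.4% and 7.55%). Of the 165 genes higher on chromosome 12, 45 were transcripts of the run from Dlk1 to Dio3. Among genes at or above the third quartile in both lines, the median difference was -0.513 on chromosome 4, -0.397 on chromosome 1, -0.337 on chromosome 7 and 0.295 on chromosome 18, against -0.029 over all such genes. It was -0.248 on chromosome 16, -0.22 on 10 and 0.208 on 8. On chromosomes 5, 11 and 12 it was near 0, at 0.071, 0.053 and 0.037. For chromosome 4, the medians against 2012, AFT011 and 14F1-1 were -0.148, -0.508 and -0.119 for AM14-1C4 and 0.342, 0.002 and 0.352 for AM30-3F4, so AM14-1C4 was below all 3 while AM30-3F4 was level with AFT011 and above the others. For chromosome 1 they were -0.2, -0.321 and -0.47 for AM14-1C4, again below all 3, and 0.225, 0.108 and -0.07 for AM30-3F4. These comparisons share arrays. Copy number was not measured, and the part of chromosome copies in these shares was not tested.

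**Figure D5:**
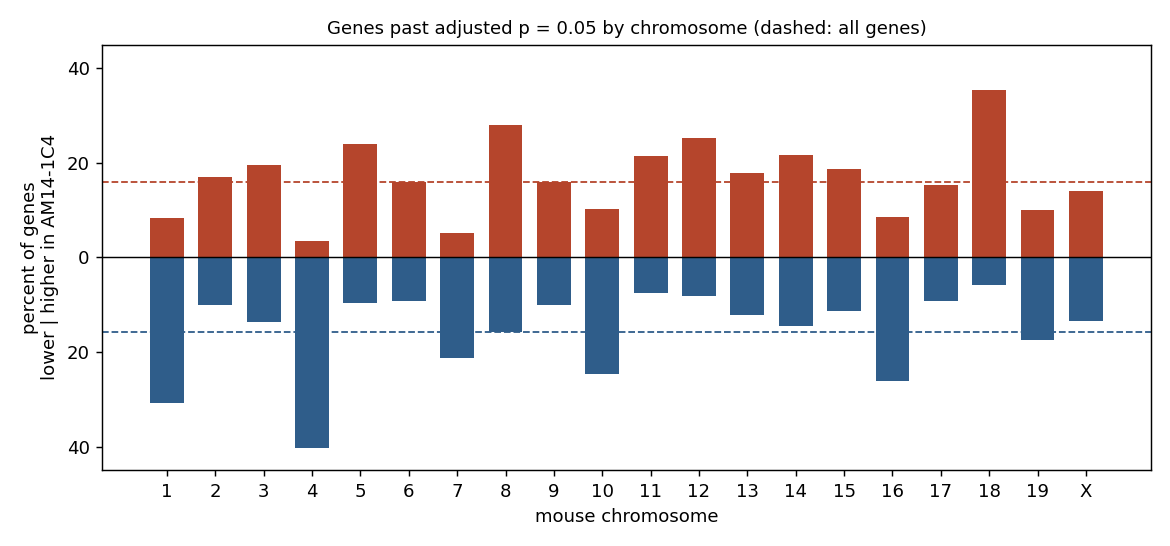
Percent of the genes of each mouse chromosome that passed an adjusted p of 0.05, higher in AM14-1C4 above 0 and lower below it; dashed lines mark the share over all genes. Chromosome 4 reaches 40.2% lower and chromosome 18 reaches 35.5% higher, against 15.8% and 15.9% over all genes.

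What the lines had in common against the rest of their set was limited. The rule asked for at least 2-fold and an adjusted p under 0.05 in 1 direction for each AM line against each of 2012, AFT011 and 14F1-1, and no call between the AM lines. It was met by 11 genes higher in both AM lines (0.0552%) and 7 lower (0.0351%), and by 20 in all without AM14-1C4 replicate 3. Has2, the synthase of the matrix polymer hyaluronan, read 12.06, 12.14 and 12.15 in AM14-1C4 and 12.01, 12.02 and 11.99 in AM30-3F4, and was above the other lines by 1.83 to 4.16. Tnc, the matrix glycoprotein tenascin-C, read 12.15, 12.11 and 12.06 against 12.15, 12.11 and 12.11 and was above the others by 1.16 to 5.52. Zfp979, a zinc-finger gene, had the largest smallest difference (2.16), at levels of 6.11 to 6.63. The transcription factor Snai1, the receptor Lpar4 and Auts2, Wnk3, Nectin1, AA414768, Rgs16 and U90926 completed the higher set. Rgs16 and U90926 are not alike between the AM lines, differing by 0.71 and 0.55 with intervals that passed 1.5-fold.

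The 7 genes lower in both were Akr1c14, a steroid dehydrogenase that was lower by at least 2.90 than in any other line, Bend6, Arhgef3, Slc44a1, Lrrc8b, Kansl1l and the mesothelial surface protein Msln. Tissue, strain and stage run together in this set. So does Xist, at means of 12.29 and 11.87 in the AM lines and 5.6, 5.56 and 5.74 in 2012, AFT011 and 14F1-1. The source of the levels common to the AM lines therefore cannot be told apart. By count of called genes, AM14-1C4 differed from 2012, AFT011 and 14F1-1 in 6514, 6898 and 7795 genes (1166, 1318 and 1917 at 2-fold). AM30-3F4 differed from them in 5977, 4660 and 7023 (882, 724 and 1423), beside 6308 (1189) between the AM lines. These pairs share arrays, and the counts are a description.

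The genes that separated the supportive UG26.1B6 from the less supportive UG26.3B5 often separated the 2 supportive AM lines too. Both pairs took their standard errors from the same fit, so a gene with a small spread is more readily called in both. What this adds to the overlap was not tested. Of 1707 genes called in the UG26 pair (8.56% of those tested), 1032 were also called between AM14-1C4 and AM30-3F4, which is 60.5% of the UG26 genes, against 31.6% of all genes, and 16.4% of the AM genes; 654 had the same sign. Of the 1707, 782 (45.8%) were alike in the AM lines, against 73.9% of all genes. Of the 201 genes at 2-fold or more in the UG26 pair, 85 were at 2-fold between the AM lines. Over all genes that share was 5.96%. Of the same 201, 51 (25.4%) were alike. Cxcl12 and Tnc were among genes that differed in the UG26 pair (1.08 and 1.77, both higher in UG26.1B6) and were alike in the AM pair. Periostin, Postn, a matricellular protein, was another, at 1.66 in the UG26 pair and 0.07 here, with an interval from -0.29 to 0.43; these 3 were chosen after their values were seen.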

How the data were processed

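The deposited table held a log2 signal for each probe set. The submitters' processing notes name RMA and Partek for the authors' processing, and their versions, their settings and a genome build are not given in the sources used here. RMA subtracts background, matches quantiles and summarises probes, so low signals are compressed and folds of dim genes understated. Quantiles matched within sets of arrays, and the pair lay in a set of 15. Of 35556 probe sets, 21789 named 1 gene, 1621 several and 12146 none; the brightest probe set per gene left 19938 genes, without a signal filter. Array medians were 7.04 to 7.10. The number of arrays limits the precision.

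The test was limma (version 3.58.1, in R 4.3.3 with the package data.table, version 1.17.8) on the 39 confluent arrays, with a mean per line, two-sided and adjusted by Benjamini-Hochberg over all genes at 0.05, and the script was tested on simulated data. Standard errors come from the spread over all lines. Plots used matplotlib 3.10.9 and Python 3.11.15. Named genes were the 14 largest differences per direction among non-overlapping genes with ordinary symbols, up to 6 passing and 4 bright alike members per list, and 10 shared genes per direction; any other was chosen after its values were seen. The pair and the 38 lists (1023 genes measured) were chosen with earlier results of these data known. The runs of neighbouring genes, the view by chromosome and the check of single arrays were chosen after seeing the values. Alternatives changed the arrays fitted, moderation, normalization, low-signal filter, probe set rule, replicate block and replicates.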

Additional observations from a re-analysis of the deposited data

How the results depend on the processing

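Every one of the 300 named genes past the threshold kept its direction under all alternatives run, 18 lost significance under at least 1, and 28 of 86 that did not pass gained it. Called genes numbered 5665 to 5766 with single arrays left out, 6354 after cyclic loess, 7790 with the 15 arrays of the set and 8598 with the 6 arrays of the pair. With a replicate block 8764 genes were called; same-numbered arrays of the lines correlated at 0.123, 0.219 and 0.024 in their deviations, so 2 of 3 exceeded 0.1 and the numbers were not taken as pairs. Genes at 2-fold or more ranged from 1066 to 1206. Alike genes numbered 14298 to 15931, but 5851 when only genes at or above the set median were tested, which leaves fewer genes. Of 76 list counts (each list, each direction), 20 moved by over 1.5 times under at least 1 alternative. With the 6 arrays of the pair, members called rose from 11 to 17 for Wnt genes higher, 6 to 10 for chemokines and cytokines lower, 3 to 5 for interstitial collagens higher, 1 to 4 for basement membrane genes higher, 9 to 14 and 8 to 13 for matricellular genes higher and lower, 2 to 4 for prostaglandin genes lower and 14 to 24 for sterol and fatty acid genes higher.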
